A study of Homo sapiens with 6 samples.

Results

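The SNORD113 and SNORD114 RNAs are box C/D small nucleolar RNAs (snoRNAs) encoded in tandem on chromosome 14 in the imprinted DLK1-DIO3 domain. Their array features were taken by symbol, as every feature with the single symbol SNORD112 or with one that starts with SNORD113- or SNORD114-. The rule found 40 of the 70523 features, 9 of SNORD113 and 31 of SNORD114. It found no feature of SNORD112, whose only feature also carries the symbol MEG8. The RNA came from AC16, a human line made by fusing cells of adult ventricular tissue with transformed fibroblasts, so it proliferates and is not a pure cardiomyocyte. Cells kept at 37 °C for 6 h were the control (n = 3) and cells kept at 28 °C for 6 h were the hypothermia group (n = 3), all in medium with serum, penicillin and streptomycin under 5% CO2. Nothing in the labels ties the 3 samples of a group to different cultures, and each p-value below therefore rests on a sample-to-sample spread that could be technical. Each value below is a log2 signal of 1 feature on 1 array, as summarised by the authors with RMA (robust multi-array average), and a difference is the mean at 28 °C minus the mean at 37 °C.

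Box C/D snoRNAs carry short conserved C and D boxes that bind the proteins SNU13, NOP56, NOP58 and fibrillarin. Most of them guide fibrillarin to methylate the ribose of ribosomal or spliceosomal RNA at a base-paired site. The SNORD113 and SNORD114 RNAs have no established target of that kind and are called orphan snoRNAs. They are cut from the introns of a long noncoding transcript that is made from the maternal chromosome, downstream of MEG3 and MEG8, in a domain that also holds DLK1, RTL1, DIO3 and a large cluster of microRNAs. All 40 symbols were found in RefSeq on chromosome 14, where their order along the chromosome follows their numbers and their genes are 69 to 104 bases long. The sequences of the snoRNAs were not used here. The promoter of MEG3 is shown because MEG3 is the first of the maternally expressed noncoding RNAs of the domain, upstream of the snoRNA genes. It is the first of 3 MEG3 windows in the RefSeq table, chr14:100825858-100826157 (GRCh38.p14, plus strand), 5′ to 3′, in which the capitals mark the 2 motifs searched for.

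MEG3 promoter: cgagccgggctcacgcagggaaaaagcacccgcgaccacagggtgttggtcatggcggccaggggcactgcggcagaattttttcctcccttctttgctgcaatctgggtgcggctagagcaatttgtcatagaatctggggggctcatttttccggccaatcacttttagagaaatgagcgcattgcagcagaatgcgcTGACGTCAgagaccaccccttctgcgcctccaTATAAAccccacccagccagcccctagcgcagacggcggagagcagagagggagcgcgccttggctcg

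The cyclic AMP response element TGACGTCA starts 50 bases before the annotated start site, and its letters, the same on both strands, occur in 1.85% of the 35116 promoter windows of that length in the table. The TATA motif TATAAA starts 18 bases before the start site and occurs on either strand in 11.5% of those windows. The 2 motifs do not overlap, and a match describes letters only.

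Signals of the 40 features spread widely. Their means over the 6 arrays ran from 2.06 for SNORD114-18 to 9.10 for SNORD114-14, with a median of 3.91. On each array the 23 background features, which are named by the 3 to 25 G or C bases of their probes, had a median between 2.47 and 2.60. Of the 40 snoRNA features, 28 lay above that median on all arrays and 5 below it on all arrays (SNORD113-1, SNORD113-2, SNORD114-8, SNORD114-18 and SNORD114-29). The base composition of the snoRNA probes is not known here, so a signal cannot be called background from its level alone, and a fold of a dim feature is not exact. SNORD114-14 and SNORD114-20 exceeded 22 of the 23 background features on every array. The number of arrays limits the precision. Among the markers of the cell line, 8 of 9 cardiomyocyte genes measured lay above the median background feature on every array, and RYR2 did not. All 7 fibroblast and mesenchymal genes, 2 of 4 leukocyte genes and 3 of 4 endothelial genes did. The 9 cardiomyocyte genes had differences from 0.03 to 0.23, none of them past the adjusted threshold. Their mean signal ran from 4.15 to 4.31 on the control arrays and from 4.31 to 4.33 on the hypothermia arrays, and its part in the results below was not tested.

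**Figure D1:**
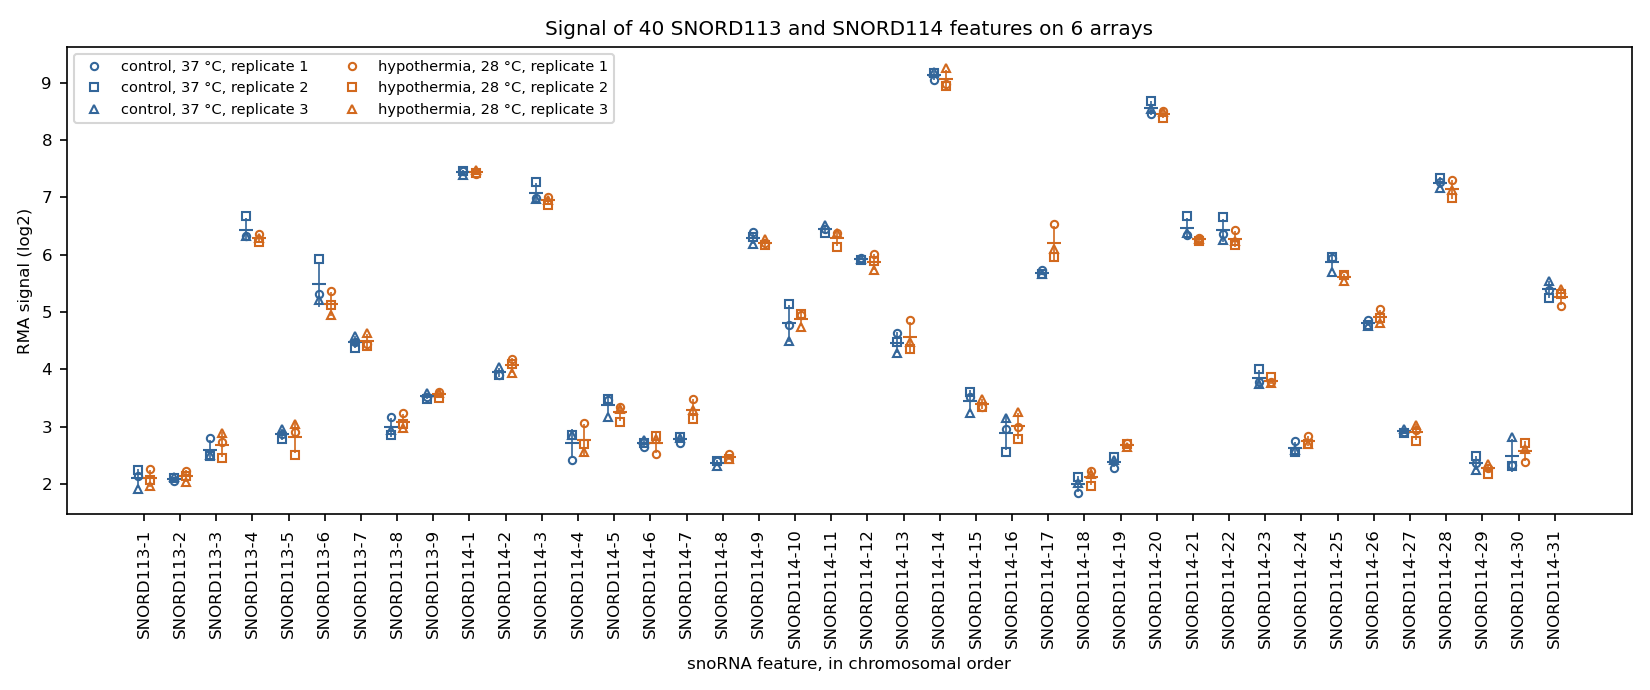
Log2 RMA signal (y axis) of the 40 features in chromosomal order (x axis) on the 3 control (blue) and 3 hypothermia (orange) arrays, with dashes for group means and bars for 1 SD. SNORD114-7, SNORD114-17 and SNORD114-19 have all orange points above all blue ones, and 34 of the 40 features have overlapping groups.

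No member of the cluster passed the adjusted threshold between hypothermia and control. Of the 40 features, 0 were higher and 0 lower at an adjusted p under 0.05 from limma, against 0.227% and 0.591% of all features. At an unadjusted p under 0.05, 3 were higher (SNORD114-7, SNORD114-17 and SNORD114-19) and 1 was lower (SNORD114-25). These are 7.5% and 2.5% of the 40, and among all features the shares were 5.41% and 6.08%, so neither stands far from the background. The random variance model and the methods' t-test also gave 3 and 1 at an unadjusted p under 0.05, and 0 after adjustment. The differences of the 40 features had a median of 0.00053, with 20 above and 20 below 0. All features had a median of 0.03, with 59.6% above 0. The quartiles of the members ran from -0.11 to 0.10. In RNA of a whole culture, a change in the share of cells that make an RNA and a change in its amount per cell cannot be told apart. Mature snoRNA and unspliced host RNA are likewise not separated by 1 feature, and copies of the family resemble each other, so a probe may bind RNA of more than 1 of them.

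SNORD114-7 had the largest positive difference of the cluster. Its signals were 2.72, 2.82 and 2.80 in control replicates 1, 2 and 3 and 3.48, 3.13 and 3.29 in hypothermia replicates 1, 2 and 3. The groups did not overlap, and hypothermia replicate 1 was the highest. The difference was 0.52 (standard error 0.0947, 95% interval 0.30 to 0.74), a measured ratio of 1.43, with an unadjusted p = 0.000632 and an adjusted p = 0.0617 from limma. The feature lay above 12 of the 23 background features on every array, so this ratio is not exact. With array weights the adjusted p was 0.0392, past the threshold, and over the other alternatives it ran from 0.0543 to 0.315.

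SNORD114-17 also had all of its hypothermia values above the controls. The control signals were 5.73, 5.67 and 5.66, and the hypothermia signals were 6.54, 5.95 and 6.11. The controls lay close together (SD 0.0394), and the hypothermia arrays were spread over a wider range (SD 0.305), with replicate 1 again the highest. Its difference of 0.51 (standard error 0.139, 95% interval 0.19 to 0.83) was a 1.42-fold increase in the mean, with an unadjusted p = 0.00643 and an adjusted p = 0.197 from limma. Without hypothermia replicate 1 the difference was 0.34 (adjusted p = 0.254 from limma), and over all alternatives the adjusted p ran from 0.122 to 0.479.

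SNORD114-19 gave 2.28, 2.47 and 2.41 in the controls and 2.70, 2.69 and 2.64 at 28 °C. All 3 control values lay below the median background feature of their array and all 3 hypothermia values above it. The difference was 0.30 (standard error 0.0707), with an unadjusted p = 0.00315 and an adjusted p = 0.141 from limma, and over the alternatives the adjusted p ran from 0.0393 with array weights to 0.409. SNORD114-8 was the fourth feature whose hypothermia values all lay above the controls, with a difference of only 0.10 (adjusted p = 0.61 from limma) at a signal below the median background feature. These 4 of 40 features without overlap in the higher direction compare with 9.38% of all features. SNORD114-7 and SNORD114-8 are neighbours in the cluster, and the other pair is not. SNORD114-18, the gene between SNORD114-17 and SNORD114-19, had a difference of 0.12 with overlapping groups at a mean signal of 2.06, which lies in the range of the dimmer background features.

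Among the lower values, SNORD114-25 had the smallest p. Its signals were 5.95, 5.96 and 5.70 in the controls and 5.64, 5.64 and 5.55 at 28 °C. The groups did not overlap, although control replicate 3 came close to the hypothermia arrays. The difference was -0.26 (standard error 0.086, 95% interval -0.46 to -0.06), with an unadjusted p = 0.0174 and an adjusted p = 0.3 from limma. With the average of the 11 brighter background features per array as a covariate, the difference was -0.12 (adjusted p = 0.633 from limma), and over the alternatives the adjusted p ran from 0.067 to 0.633. The means of those 11 were higher at 28 °C by 0.07 to 0.22. The covariate is thus partly confounded with temperature, and the 2 cannot be told apart in that fit. SNORD114-21 was the other feature whose hypothermia values all lay lower, with control signals of 6.35, 6.67 and 6.37 and hypothermia signals of 6.30, 6.23 and 6.28. Its difference of -0.19 (adjusted p = 0.486 from limma) became -0.09 without control replicate 2, the array with the highest value. These 2 of 40 features compare with 8.49% of all features whose groups did not overlap in the lower direction.

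**Figure D2:**
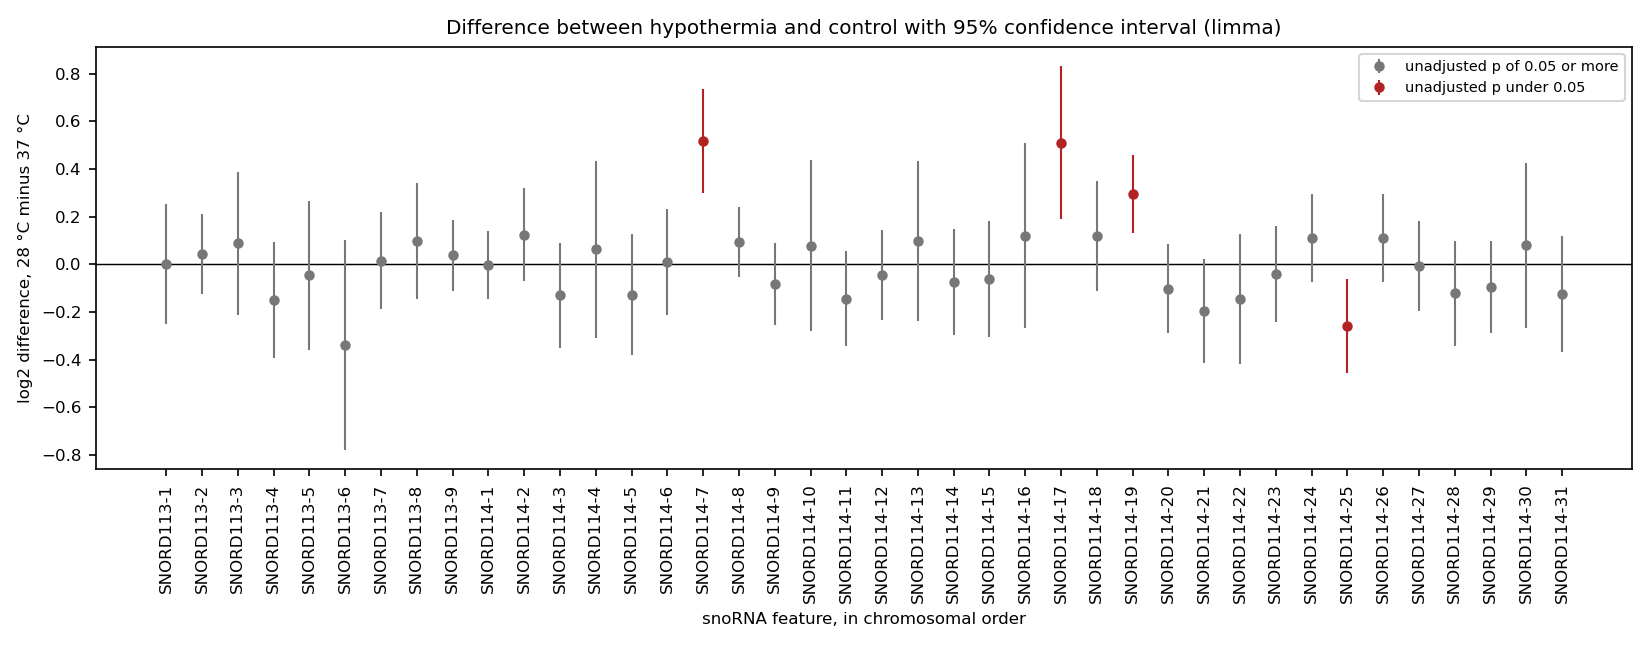
Log2 difference, 28 °C minus 37 °C (y axis), of each of the 40 features in chromosomal order (x axis), with 95% confidence intervals from limma. Only the intervals of SNORD114-7, SNORD114-17, SNORD114-19 and SNORD114-25 (red) leave out 0, before any adjustment for the number of features.

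The 9 SNORD113 features had overlapping groups throughout. Their differences ran from -0.34 to 0.10 with a median of 0.02, 6 of them above and 3 below 0, and none had an unadjusted p under 0.05. The most negative was that of SNORD113-6, a snoRNA that binds messenger RNAs in human fibroblasts of the vessel wall. Its signals were 5.31, 5.92 and 5.21 in the controls and 5.37, 5.11 and 4.95 at 28 °C, a difference of -0.34 (95% interval -0.78 to 0.10, adjusted p = 0.549 from limma). Control replicate 2 stood well above the rest, and without it the difference was -0.12. SNORD113-4 had signals of 6.32, 6.68 and 6.32 in the controls and 6.35, 6.22 and 6.29 at 28 °C. It too was highest in control replicate 2 and otherwise level (difference -0.15, adjusted p = 0.63 from limma). SNORD113-1, which has been described as a growth suppressor in liver cancer cells, lay below the median background feature on all arrays, as did SNORD113-2. Their differences were 0.0018 and 0.05, with overlapping groups. SNORD113-7 had a mean of 4.48 and a difference of 0.02, with a 95% interval from -0.19 to 0.22. SNORD113-3, SNORD113-5, SNORD113-8 and SNORD113-9 had means between 2.64 and 3.55 and differences between -0.05 and 0.10.

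None of the 6 features with the highest signals passed the test. SNORD114-14 gave 9.05, 9.17 and 9.19 in the controls and 8.98, 8.95 and 9.26 at 28 °C, and SNORD114-20 gave 8.45, 8.69 and 8.55 in the controls and 8.52, 8.38 and 8.49 at 28 °C. In both the groups overlapped, and the differences were -0.07 and -0.10 (adjusted p = 0.801 and 0.664 from limma). SNORD114-1, which has been linked to the growth of leukaemic promyelocytes, had a narrow range. Its 6 signals lay between 7.40 and 7.49, and the 95% interval of its difference ran from -0.14 to 0.14. SNORD114-28, SNORD114-3 and SNORD114-11 had differences of -0.12, -0.13 and -0.14, and SNORD114-22 had -0.14 (adjusted p from 0.568 to 0.678 from limma). SNORD114-2 and SNORD114-16 had 0.12 each, with overlapping groups. The other 15 SNORD114 features had differences between -0.13 and 0.11 and an unadjusted p of 0.196 or more from limma.

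The brighter features of the family lay below 0 more often than the dimmer ones. Split at the median of their mean signals, a split chosen after the values were seen, the 20 brighter features had a median difference of -0.09 with 14 below 0, and the 20 dimmer ones had 0.05 with 14 above 0. Of all features brighter than the same level, 44.2% lay below 0, with a median of 0.02. Of those at or under it, 62.3% lay above 0, with a median of 0.03, so the 70% of the dimmer members is near that share. The other SNORD features brighter than that level, 75 in number, had a median of -0.08 with 69.3% below 0, beside 70% of the brighter members. Of 6 SNORD115 and SNORD116 features brighter than it, 6 lay below 0, with a median of -0.29. At an unadjusted p under 0.05, 3 of the 6 were lower. The shares were 18.7% of those 75 other SNORD features and 11.6% of all features brighter than that level. The 6 are few, and their average SD within groups was 0.208. The 23 dimmer other SNORD features had 78.3% below 0, beside 30% of the dimmer members, and none of these differences between groups of snoRNAs was tested. The 6 brighter members above 0 were SNORD114-17, SNORD114-2, SNORD114-26, SNORD114-13, SNORD114-10 and SNORD113-7. The 14 became 15 when each array was centred on its median and stayed at 14 after quantile normalization, while the dimmer features above 0 fell from 14 to 12 under both. The 11 brighter background features had differences on the other side of 0, from 0.07 to 0.22, each with an unadjusted p of 0.0575 or more from limma. Their average is partly confounded with temperature, so a fit that uses it may also take out part of a temperature difference. With their average per array as a covariate, 13 of the brighter members lay below 0 and 13 of the dimmer ones above it. In that fit SNORD113-6 went from -0.34 to -0.04, SNORD113-4 from -0.15 to -0.03, SNORD114-3 from -0.13 to -0.02 and SNORD114-22 from -0.14 to 0.02. SNORD114-11 and SNORD114-14 moved the other way, from -0.14 to -0.22 and from -0.07 to -0.14.

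**Figure D3:**
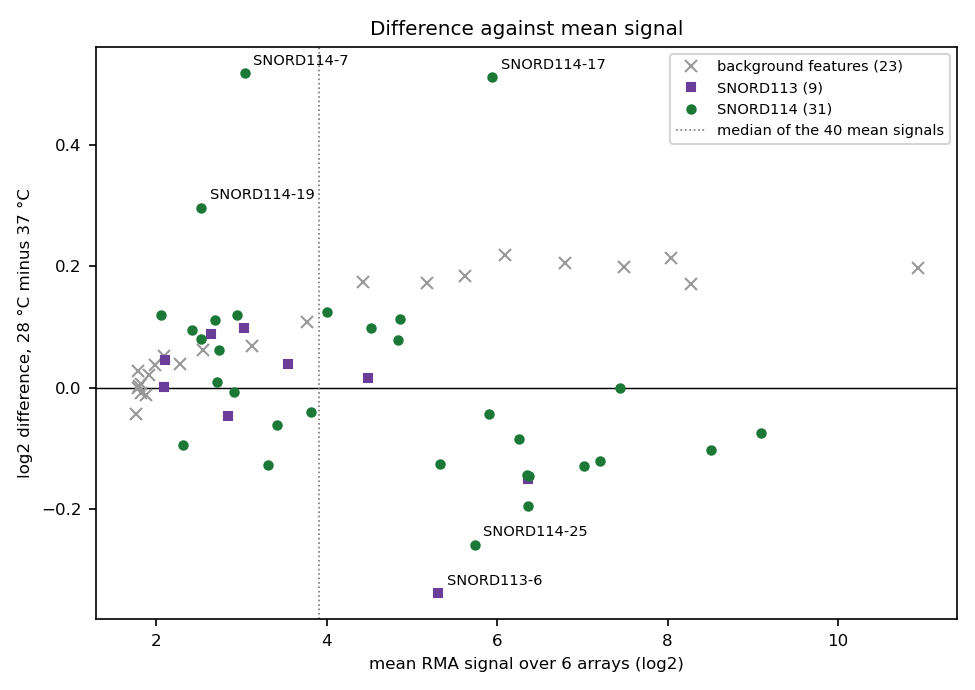
Log2 difference, 28 °C minus 37 °C (y axis), against the mean log2 signal over 6 arrays (x axis) for the 9 SNORD113 features, the 31 SNORD114 features and the 23 background features. The members right of the dotted line at their median signal lie mostly below 0, with SNORD114-17 at 0.51 apart from them, and the brighter background features lie above 0.

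Several of the extreme values came from the same arrays. Control replicate 2 held the highest signal of 9 of the 20 brighter members, against 25.1% of all features brighter than the same level. These 9 were SNORD113-4, SNORD113-6, SNORD114-3, SNORD114-10, SNORD114-20, SNORD114-21, SNORD114-22, SNORD114-25 and SNORD114-28. Hypothermia replicate 1 held the highest signal of 15 of all 40 members, where it held that of 19.8% of all features, and SNORD114-7, SNORD114-17 and SNORD114-19 were among the 15. Hypothermia replicate 2 held the lowest signal of 14 members, against 12.6% of all features. The average SD within groups was 0.143 for the brighter and 0.143 for the dimmer members, above the 0.119 of all features. It was 0.146 for the 98 other SNORD features and 0.114 for the 50 SNORD115 and SNORD116 features, so it is not particular to the members.

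**Figure D4:**
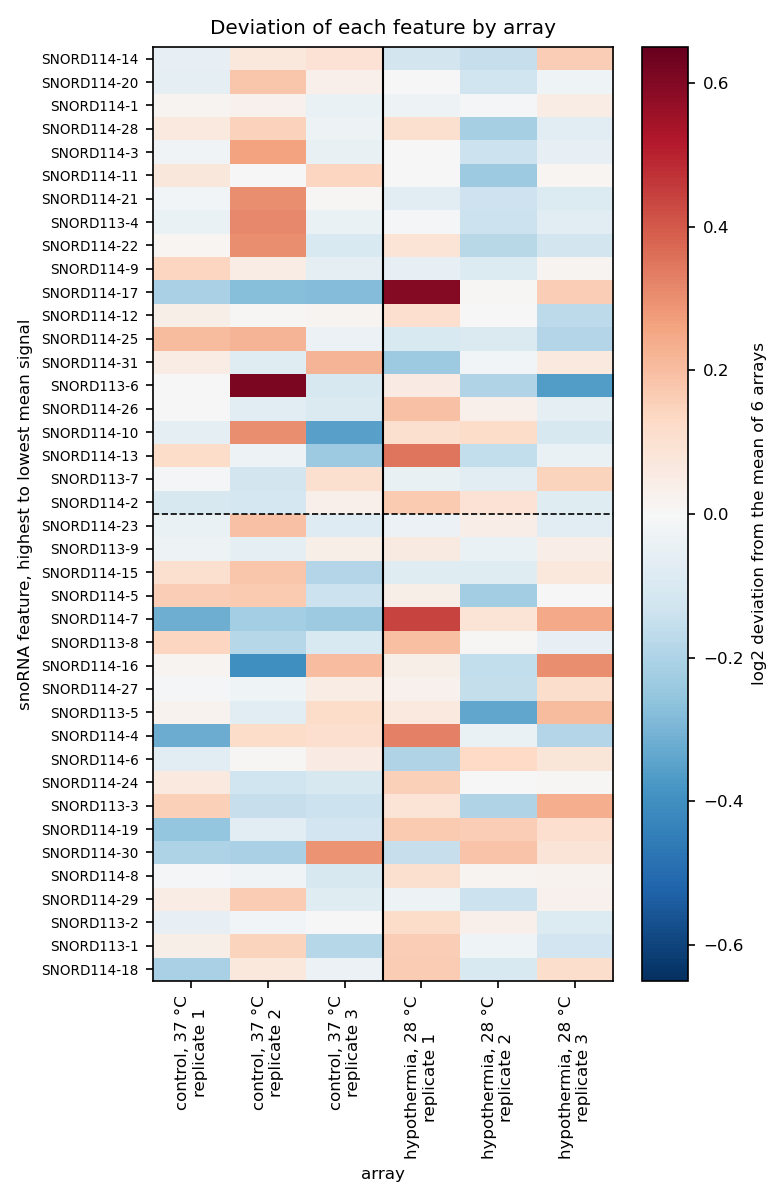
Deviation of each of the 40 features (y axis, highest to lowest mean signal, with a dashed line after the 20 brighter ones) from its own mean over 6 arrays, for each array (x axis), with the colour giving log2 units. Control replicate 2 is high for SNORD113-6, SNORD113-4, SNORD114-21 and SNORD114-22, and hypothermia replicate 1 for SNORD114-17 and SNORD114-7.

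The other box C/D snoRNAs on the array were counted in the same fit. Of 50 SNORD115 and SNORD116 features, which belong to the imprinted cluster on chromosome 15, 0 passed the adjusted threshold. At an unadjusted p under 0.05, 0 were higher and 3 lower (6%), against 5.41% and 6.08% of all features. The median difference of the 50 was 0.0028 at a median mean signal of 2.02. That signal is below the median background feature of every array, at 2.47 to 2.60, so most of these features were dim. Of 98 remaining SNORD features, which include the guides of ribosomal RNA methylation, 0 were higher and 1 lower after adjustment. At an unadjusted p under 0.05, 10 were higher and 18 lower, which is 10.2% and 18.4%. Their median mean signal was 6.40. Their median difference was -0.08, with 28.6% above 0, where 50% of the SNORD113 and SNORD114 features and 59.6% of all features were above 0.

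Of the 8 measured genes of the domain around the cluster, 0 passed the adjusted threshold, and at an unadjusted p under 0.05 1 was higher and 1 lower. Among all features the shares at that p were 5.41% and 6.08%. The groups did not overlap for MEG9 and BEGAIN, which were higher at 28 °C, and PPP2R5C, which was lower. Of all features, 9.38% and 8.49% had no overlap in those directions. MEG3, the noncoding RNA at the maternally expressed start of the domain, had signals of 6.76, 6.48 and 6.42 in the controls and 6.54, 6.54 and 6.52 at 28 °C. Its difference was -0.02 (adjusted p = 0.956 from limma), and its groups overlapped. The feature that carries the symbols of both MEG8 and SNORD112 had signals of 4.92, 4.92 and 4.67 in the controls and 4.93, 4.76 and 4.83 at 28 °C. It had a difference of 0.0024 and overlapping groups, and cannot be assigned to either. MEG9, a noncoding RNA at the far end of the microRNA cluster, had signals of 4.07, 4.16 and 4.02 in the controls and 4.20, 4.33 and 4.28 at 28 °C. The difference was 0.19 (unadjusted p = 0.0298, adjusted p = 0.364 from limma). Of the paternally expressed protein genes, DLK1, which encodes a Notch ligand homologue, had 0.04, RTL1, derived from a retrotransposon, had 0.03, and DIO3, which encodes the enzyme that inactivates thyroid hormone, had 0.20 (adjusted p = 0.448 from limma). BEGAIN, WDR25 and PPP2R5C, which flank the domain, had 0.15, 0.02 and -0.25. PPP2R5C, a regulatory subunit of protein phosphatase 2A, had an unadjusted p = 0.0138 and an adjusted p = 0.273 from limma.

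All 52 listed microRNA genes of the domain were measured, and 0 passed the adjusted threshold. Their differences ran from -0.14 to 0.33 with a median of 0.04. Of the 52, 34 lay above and 18 below 0, where 59.6% of all features lay above 0. On every array, 18 of the 52 lay above the median background feature. At an unadjusted p under 0.05, 3 were higher and 0 lower, that is MIR323A, MIR668 and MIR432, with differences of 0.22, 0.21 and 0.26 (adjusted p = 0.327, 0.34 and 0.354 from limma). MIR370 followed with 0.21 (adjusted p = 0.439 from limma). Of all features, 5.41% were higher and 6.08% lower at an unadjusted p under 0.05 from limma.

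The proteins that bind these RNAs did not pass the test either. Fibrillarin (FBL), the methyltransferase, had signals of 8.75, 8.78 and 8.86 in the controls and 8.79, 8.75 and 8.84 at 28 °C, a difference of -0.01 (95% interval -0.16 to 0.14). NOP58 had a difference of 0.01 and SNU13, which binds the RNA fold first, had -0.02. NOP56 has no feature with a single symbol. Of 9 factors that assemble the particle, 0 passed at the adjusted or the unadjusted threshold. The furthest from 0 were RPAP3, a cochaperone adaptor, with -0.18, and the zinc-finger protein ZNHIT6 with -0.16, while NOPCHAP1 had -0.12 and ZNHIT3 had -0.05 (adjusted p from 0.536 to 0.832 from limma). Control replicate 2 held the highest signal of 9 of these 12 protein genes. It did so for 21.2% of all features and for 25.1% of those brighter than the median snoRNA feature, as all 12 genes were. It also held the highest signal of SNORD113-6 and SNORD114-21.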

How the data were processed

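Total RNA of AC16 cells was labelled as biotinylated cRNA and measured on Affymetrix arrays, 1 per sample. The deposited log2 values, 1 per feature and array, had been background corrected, normalized between arrays and summarised by the authors with RMA, with no version or settings stated. Normalization between arrays removes much of a shift shared by all RNAs, so such a shift cannot be read from these values. The deposited values were not on an identical distribution, with array medians over all features from 3.33 to 3.41. Symbols came from the platform's probe table (23781 features with 1 symbol, 1543 with several, 45199 with none). All 70523 features were fitted without a filter or pseudocount in limma 3.58.1 (R 4.3.3, lmFit and eBayes, two-sided, threshold 0.05, Benjamini-Hochberg adjustment over all features). The alternatives were quantile normalization, centring, removal of features under the 25th or the 50th percentile of signal, and robust variances with an intensity trend. Others were an ordinary t-test, the random variance model that the methods name for the arrays, array weights, a replicate block and a background covariate. Identical rows were also counted once, and each array was left out in turn. On simulated data for this comparison over 70523 features, limma recovered 25.4% of 67 changes of 0.5, 85.1% of 67 changes of 1 and 100% of 66 changes of 2 on the log2 scale. The members and gene lists were chosen with earlier results of these data known. Named members were every SNORD113 feature, the 6 with the largest positive and the 6 with the largest negative difference, those with an unadjusted p under 0.05 and the 6 with the highest mean. All measured domain genes and core proteins were named, and up to 4 genes by smallest p from the microRNA and assembly lists. SNORD114-8, SNORD114-10, SNORD114-13 and SNORD114-26 were named after their values were seen.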

Additional observations from a re-analysis of the deposited data

Results flagged for a closer look

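Feature TC14000698.hg.1, which was singled out after its values were seen, passed the adjusted threshold. It comes from the same arrays and fit as the 40 snoRNA features, but has no symbol in the probe table and so lies outside the rule. Its number lies between those of SNORD114-19 and SNORD114-20, and its place in the genome and gene were not determined. Its signals were 4.33, 4.46 and 4.25 in the controls and 5.03, 4.75 and 4.93 in the hypothermia samples, with no overlap. The difference was 0.557 on the log2 scale (standard error 0.0927, adjusted p = 0.0455 from limma). It was 1 of 8 features without a symbol numbered between the snoRNA features, whose median difference was 0.01. The adjusted p lay above the threshold in each fit without 1 array, from 0.0617 to 0.193, with differences from 0.495 to 0.633. It also did so after quantile normalization (adjusted p = 0.0923), centring (0.0766), with the replicate block (0.0958), with the background covariate (0.121) and by an ordinary t-test (0.28).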

How the results depend on the processing

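Of 731 differences recomputed for 44 features under 17 settings, 668 kept their direction and side of the threshold. This agreement was partly fixed in advance. No snoRNA features shared their values, so counting identical rows once repeated the main fit. The percentile filters, variance models, ordinary t-test and replicate block left each difference itself unchanged. All but TC14000698.hg.1 were above the adjusted threshold in the main fit. Array weights gave 2 of the 40 snoRNA features higher after adjustment, SNORD114-7 (0.516) and SNORD114-19 (0.349), where 0 were called. That fit also called more of the 70523 features, 379 higher and 1107 lower against 160 and 417 in the main fit. The cause was not tested. Quantile normalization left 1 feature lower without overlap. The filter at the 50th percentile kept 23 of the 40 features, with 1 higher at an unadjusted p under 0.05, 1 higher without overlap and a median difference of -0.0740, over fewer features by construction. The shares of all features in those counts are not known here for that filter. Without 1 array, 0 features passed after adjustment in either direction and 3 were higher at an unadjusted p under 0.05. The count lower at that p ran from 0 to 2 (0 without control replicate 2 or hypothermia replicate 3, 2 without control replicate 3). The count higher without overlap ran from 4 to 7 (7 without control replicate 1 or hypothermia replicate 3), that lower from 2 to 8 (6 without control replicate 3, 8 without hypothermia replicate 1), and the median from -0.0329 to 0.0116. Groups of fewer arrays separate more easily, and the shares of all features without overlap are not known here for these fits.

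Some differences that were not called changed sign, most of them near 0, and the cause was not tested. SNORD114-16 (0.12), SNORD114-22 (-0.14) and NOPCHAP1 (-0.12) were further from 0 and turned with the background covariate. After quantile normalization these were SNORD113-1 (-0.0107), SNORD113-7 (-0.0187), SNORD114-1 (0.0496), MEG3 (0.00900), WDR25 (-0.00408) and FBL (0.0436). After centring they were SNORD113-1 (-0.0347), SNORD113-7 (-0.0204), RTL1 (-0.00212), WDR25 (-0.0118) and NOP58 (-0.0313). With array weights they were SNORD113-1 (-0.0318), SNORD113-3 (-0.0471), SNORD113-8 (-0.00549) and FBL (0.00974). With the background covariate they were SNORD113-7 (-0.103), SNORD113-9 (-0.0102), SNORD114-16 (-0.163), SNORD114-22 (0.0177), SNORD114-1 (0.0220), MEG3 (0.0457), WDR25 (-0.0183), SNU13 (0.0336) and NOPCHAP1 (0.0237). Without 1 array, the differences that changed sign ran from -0.0916 to 0.0755 for SNORD113-1, -0.00393 to 0.100 for SNORD113-2, -0.00869 to 0.208 for SNORD113-3, -0.160 to 0.111 for SNORD113-5, -0.0524 to 0.0714 for SNORD113-7, -0.0238 to 0.0160 for SNORD114-1, -0.0481 to 0.250 for SNORD114-16, -0.00917 to 0.0800 for DLK1, -0.0872 to 0.0856 for MEG3, -0.0615 to 0.190 for RTL1, -0.0185 to 0.0487 for WDR25, -0.0309 to 0.0237 for FBL, -0.0751 to 0.142 for NOP58 and -0.0507 to 0.0112 for SNU13.

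Over all features, 160 were higher and 417 lower after adjustment. The random variance model, which the methods name for the arrays, gave 172 and 447, and an ordinary t-test gave 0 and 0. There were 379 and 1107 under array weights, 249 and 628 after the filter at the 50th percentile and 66 and 105 with the background covariate. Without 1 array, from 60 to 214 were higher and from 112 to 799 lower. Whether the replicate numbers pair the samples could not be settled. The deviations of same-numbered samples correlated at -0.08, 0.11 and 0.22, and those of differently numbered samples at -0.25 to 0.13. Deviations within a group sum to 0, so these correlations depend on each other. With the replicate block, 0 snoRNA features were higher and 0 lower after adjustment, with 122 and 304 over all features. Dim features limit what can be read, since 5 of the 40 lay below the median background feature on every array.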
